A study of Mus musculus with 6 samples.

Results

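Genes of MHC class I and class II antigen presentation were followed in natural killer (NK) cells and type 1 innate lymphoid cells (ILC1s) sorted from MC38 tumours. MC38 is a mouse colon carcinoma line of C57BL/6 origin, and the tumours grew for 14 days under the skin of wild-type C57BL/6 mice. No other treatment or genotype entered the comparison, and both cell types came from tumour tissue. RNA-seq was made from 3 NK and 3 ILC1 samples, and the labels do not give the sorting markers, the age or sex of the mice, or the number of animals behind a sample. The p-values below therefore measure the spread between these samples, which may be technical in part. The genes were chosen by name: 37 of the 55291 symbols in the count table, made up of 10 class I molecules, 14 genes of class I peptide processing with the class I transactivator Nlrc5, 10 class II genes, and 3 costimulatory genes (Cd80, Cd86 and Cd40). All 37 passed the low-count filter that left 14475 genes to test.

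Class I molecules are made by almost every nucleated cell. They pair a heavy chain with beta-2 microglobulin and carry peptides that the proteasome cuts in the cytosol and the TAP transporter moves into the endoplasmic reticulum. NK cells read class I on other cells through inhibitory receptors, and carry class I themselves. Class II molecules are mainly a feature of macrophages, dendritic cells and B cells: their alpha and beta chains assemble with the invariant chain Cd74, receive peptides in endosomes with the help of H2-DM, and depend on the transactivator Ciita. B7 molecules (Cd80 and Cd86) and Cd40 belong to the same presenting cells and take part in the costimulation of T cells.

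Levels are given as CPM, the usual depth-scaled counts, after TMM scaling of the library totals, and values in a series follow the order of replicates 1, 2 and 3. Totals ran from 16931099 to 20224847 counts, so that 3 counts correspond to 0.144 to 0.174 CPM. The labelled types were separated by the integrin Itga1, an ILC1 marker, at 44.1, 39.95 and 53.1 CPM in the NK libraries and 148, 129.8 and 178 CPM in the ILC1 libraries. The integrin Itga2, an NK marker, had the opposite order, at 118, 146 and 90.7 CPM in the NK libraries and 21, 11.5 and 4.17 CPM in the ILC1 libraries. Of the 7 group 1 ILC markers listed, 1 had a positive and 6 a negative log2 difference. Without overlap, 5 were lower in ILC1s (13.3% of all genes). The 7 summed to 4376, 4568 and 2744 CPM in the NK libraries and 2337, 2145 and 1950 CPM in the ILC1 libraries. ILC1 replicate 3 stood apart in macrophage genes. The summed level of 12 macrophage markers was 189.9, 111 and 286 CPM in the NK libraries and 391, 289.9 and 13766 CPM in the ILC1 libraries, and 12 of the 12 were over 5 times the median of the other libraries there. Fibroblast and matrix genes made a different split: the sum of 8 markers was 5.89, 13.1 and 934 CPM in the NK libraries and 1116, 1661 and 57 CPM in the ILC1 libraries, so NK replicate 3 and ILC1 replicates 1 and 2 held far more than the other 3 libraries. In bulk samples such as these, fewer cells of a type and less RNA per cell cannot be told apart.

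Summed class I levels were high in all 6 libraries and differed little beside the class II sums, which were far lower except in ILC1 replicate 3. Single class I genes varied more, with a highest-to-lowest ratio of up to 3.05, for H2-Q6. The 10 class I molecules summed to 18493, 18136 and 15426 CPM in the NK libraries and 13442, 12686 and 14382 CPM in the ILC1 libraries, a highest-to-lowest ratio of 1.46. Every ILC1 sum of these molecules lay below every NK sum. For the 14 processing genes the sums were 4769.6, 4919 and 3994 CPM in the NK libraries and 4115, 4403 and 5923 CPM in the ILC1 libraries, with a ratio of 1.48. The 10 class II genes summed to 222, 194 and 270.1 CPM in the NK libraries and 554, 526 and 11556 CPM in the ILC1 libraries, a ratio of 59.4, or 2.85 over the 5 libraries without ILC1 replicate 3. Without that library the class II sums of the ILC1s were still both above those of the 3 NK libraries. Gene by gene, the median ratio of the highest to the lowest library was 1.73 for class I molecules, 1.8 for processing genes and 65.9 for class II genes. Compared per kilobase of exon, the chains H2-Aa, H2-Ab1 and H2-Eb1 together reached 0.803, 0.642 and 1.47% in the NK libraries and 3.89, 4.02 and 79.6% in the ILC1 libraries of the level of H2-K1 plus H2-D1.

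**Figure D1:**
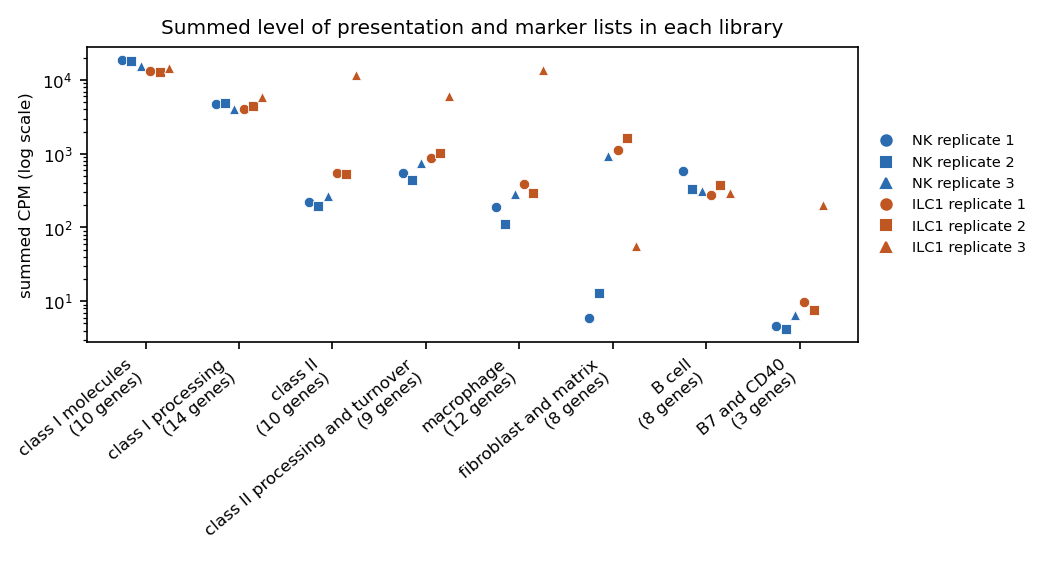
Summed CPM (log axis) of each gene list in each of the 6 libraries, 1 point per library, NK in blue and ILC1 in orange. Sums of class I molecules lie within a ratio of 1.46. The class II, class II processing, B7 and macrophage sums are highest in ILC1 replicate 3 and the fibroblast and matrix sum is not.

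No member passed the threshold of 0.05 in edgeR's quasi-likelihood test after Benjamini-Hochberg adjustment over all genes: 0 of 37 were higher in ILC1s and 0 were lower, where 0.076% and 0.00691% of all tested genes were called. At an unadjusted p under 0.05, edgeR put 10 members higher (6.95% of all genes) and 6 lower (8.82%). By DESeq2, 0 members were called higher (2.83% of the 14131 genes with an adjusted p) and 3 lower (2.94%), all of them H2-Q genes. DESeq2 gave no adjusted p for 11 members, 8 of class II and all 3 of the B7 and CD40 group. limma-voom called 0 members in either direction (0.111% and 0.0138% of all genes). The 3 ILC1 values lay wholly above the 3 NK values for 10 members (12.5% of all genes) and wholly below for 6 (13.3%). With ILC1 replicate 3 left out, these counts were 11 (27.8%) and 14 (19.4%), and edgeR called 0 members, against 0.146% of all genes in both directions. With NK replicate 3 left out, edgeR called 0 members higher and 2 lower, H2-Q7 and Tapbpl, against 3.0% of all genes in both directions.

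**Figure D2:**
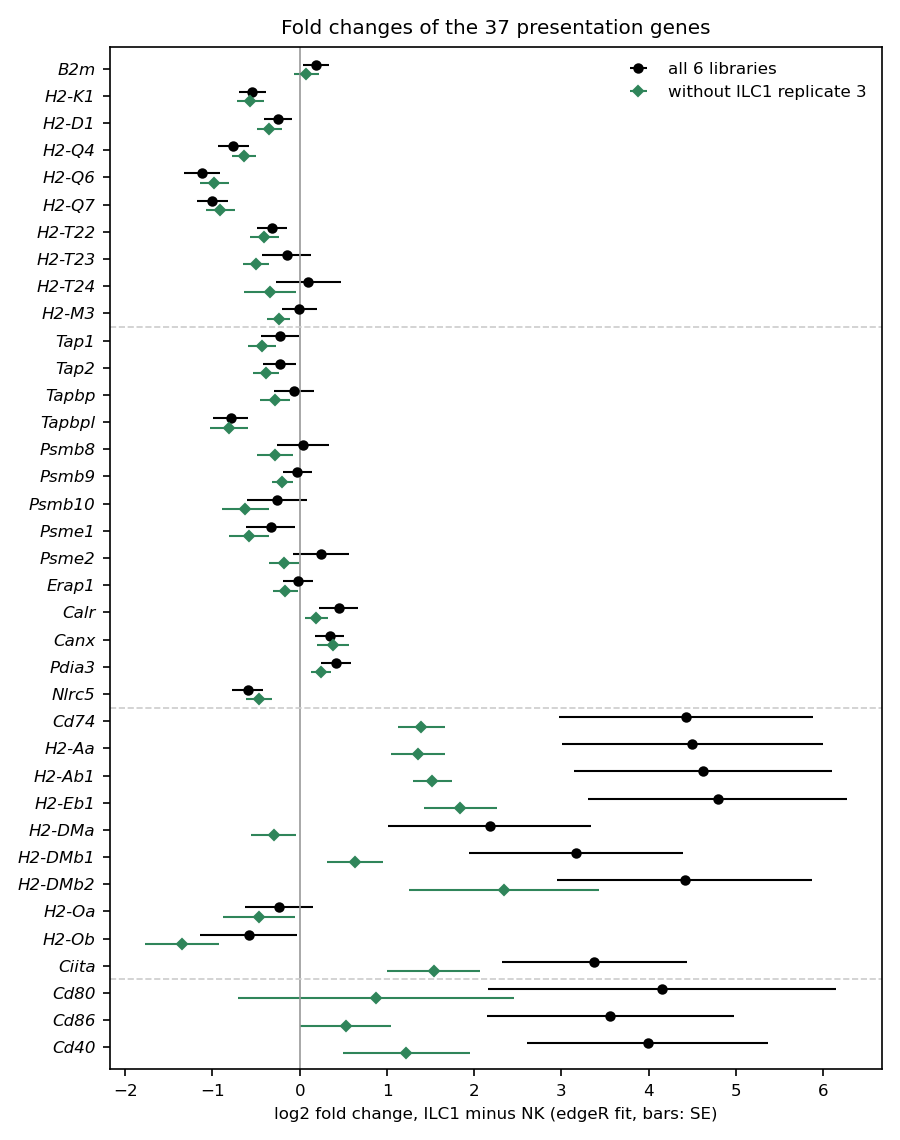
Log2 fold change of each of the 37 genes, ILC1 minus NK, from the edgeR fit on all 6 libraries (black) and on 5 libraries without ILC1 replicate 3 (green); bars are standard errors and dashed lines separate the lists. Most class II and costimulatory estimates move toward 0 and their bars shorten when that library is left out, and the class I estimates shift by less than most of these.

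Among the 10 class I molecules, H2-K1, H2-Q4, H2-Q6 and H2-Q7 had lower values in every ILC1 library than in any NK library (13.3% of all genes). Of them 0 passed edgeR, and the 3 H2-Q genes passed DESeq2. The median log2 difference of the 10 was -0.28 (all tested genes: 0.08), with 2 positive and 8 negative values. B2m, the light chain shared by all class I molecules, stood at 3098, 2926 and 3089.9 CPM in the NK libraries and 3435, 3029 and 3886 CPM in the ILC1 libraries. Its log2 difference was 0.18 ± 0.15 (SE), and the groups overlapped. H2-K1, a classical class I heavy chain (chr17:33996017-34000347, GRCm38, minus strand), was at 5889, 6111 and 4736 CPM in the NK libraries and 3846, 3744 and 3909 CPM in the ILC1 libraries. All ILC1 values lay below all NK values, with means of 5579 ± 738 CPM in NK cells and 3833 ± 83 CPM in ILC1s (SD, n = 3 each). The log2 difference was -0.54 ± 0.15, with an adjusted p of 0.214 in edgeR's quasi-likelihood test (Benjamini-Hochberg). H2-D1, the other classical heavy chain of C57BL/6 mice (chr17:35262730-35267499, plus strand), was at 5061, 4711 and 4027 CPM in the NK libraries and 3627, 3646 and 4349 CPM in the ILC1 libraries, and the groups overlapped through ILC1 replicate 3.

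H2-Q6 and H2-Q7 encode Qa-2, a nonclassical class I molecule, and lie close together at chr17:35424850-35430055 and chr17:35439155-35443773. H2-Q7 was at 1311, 1455 and 1102 CPM in the NK libraries and 735, 644 and 549.8 CPM in the ILC1 libraries. Every ILC1 library was below every NK library, the log2 difference was -1.0 ± 0.18, and the adjusted p was 0.12 in edgeR's quasi-likelihood test and 7.44e-04 in DESeq2. H2-Q6 was at 1642, 1532 and 1264 CPM in the NK libraries and 822, 688 and 538 CPM in the ILC1 libraries. Here too the groups did not overlap, with a log2 difference of -1.12 ± 0.21 and an adjusted p of 0.124 in edgeR's quasi-likelihood test and 4.74e-04 in DESeq2. H2-Q4, another gene of this cluster, was at 652, 605 and 565 CPM in the NK libraries and 419.8, 366 and 287 CPM in the ILC1 libraries, again without overlap, and its adjusted p was 0.162 in edgeR's quasi-likelihood test and 0.02 in DESeq2. Set against the classical chains, the counts of H2-Q6 plus H2-Q7 were 27, 27.6 and 27% in the NK libraries and 20.8, 18 and 13.2% in the ILC1 libraries of those of H2-K1 plus H2-D1. The share was nearly equal in the NK libraries and lower in each ILC1 library, lowest in replicate 3. H2-Q1, a low gene of the same cluster outside the 10, had the opposite order, at 3.9, 3.03 and 1.01 CPM in the NK libraries and 7.51, 11.1 and 11.3 CPM in the ILC1 libraries, with an adjusted p of 0.22 in edgeR's quasi-likelihood test and 0.0142 in DESeq2. These loci are near copies: 32.0% of the 50-base windows of H2-Q6 transcripts, the read length used here, occur in another gene, as do 26.4% for H2-Q7, 21.8% for H2-Q4, 12.8% for H2-D1 and 9.63% for H2-K1. How the counting treated such reads is not given in the sources used here, so the split between these genes is uncertain.

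The remaining class I molecules overlapped between the groups. H2-T23, whose product Qa-1 is the ligand of the NK receptor NKG2A, was at 466, 401 and 347 CPM in the NK libraries and 291, 286 and 520.5 CPM in the ILC1 libraries: ILC1 replicates 1 and 2 were the lowest of the 6 and replicate 3 the highest. H2-M3, which presents formylated bacterial peptides, and the low H2-T24 had the same order, with ILC1 replicate 3 on top. H2-T22, recognised by gamma-delta T cells, had a log2 difference of -0.32 ± 0.17 and overlapping groups, and 34.5% of its transcript windows occur in another gene, 31.2% in H2-T10. Leaving out ILC1 replicate 3 gave a median log2 difference of -0.45 with 9 of 10 negative, and 9 of 10 genes then did not overlap and were lower in ILC1s, against 19.4% of all genes.

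**Figure D3:**
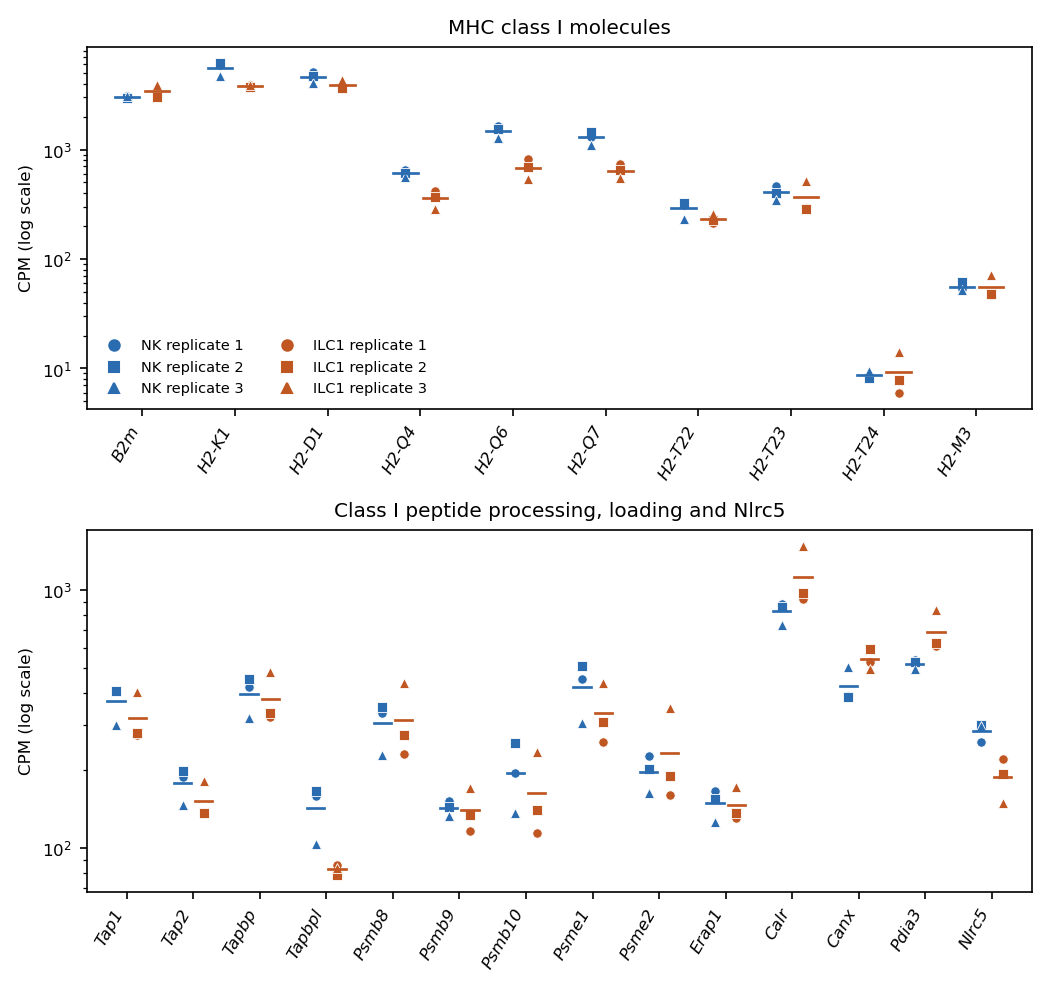
CPM (log axis) of the 10 class I molecules (top) and the 14 genes of peptide processing, loading and transactivation (bottom); each point is a library and each short line a group mean. H2-Q6 averages 1479 CPM in NK cells and 683 in ILC1s with no overlap, while B2m, the Tap genes and the proteasome subunits overlap.

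The machinery that supplies class I peptides showed no common direction. Of its 14 genes, 5 had positive and 9 negative log2 differences, with a median of -0.05, and 0 passed edgeR, DESeq2 or limma-voom on the 6 libraries. At an unadjusted p under 0.05, edgeR put 1 higher and 2 lower (6.95% and 8.82% of all genes). Nlrc5, the transactivator of class I genes, was at 258, 299 and 297 CPM in the NK libraries and 221, 194 and 149.9 CPM in the ILC1 libraries. No ILC1 value reached the NK range, and the log2 difference was -0.60 ± 0.18 with an adjusted p of 0.233 in edgeR's quasi-likelihood test. Tapbpl, a peptide editor related to tapasin, was at 158, 167 and 104 CPM in the NK libraries and 85.8, 78.2 and 83.7 CPM in the ILC1 libraries. It was lower in all 3 ILC1 libraries, with a log2 difference of -0.79 ± 0.20 and an adjusted p of 0.186 in edgeR's quasi-likelihood test. NK replicate 3 was the lowest NK library for this gene. The chaperone Calr and the oxidoreductase Pdia3, both of the peptide loading complex and of general protein folding, had the opposite order. Pdia3 was at 536, 526 and 495 CPM in the NK libraries and 609.6, 626 and 841 CPM in the ILC1 libraries. Calr was at 886, 864 and 736 CPM in the NK libraries and 924, 977 and 1484 CPM in the ILC1 libraries. In each case ILC1 replicate 3 was highest and the groups did not overlap. Tap1 and Tap2, the peptide transporter, overlapped between groups with log2 differences of -0.22 ± 0.22 and -0.23 ± 0.19. Tapbp (tapasin), Erap1 (the trimming peptidase) and Canx (calnexin) overlapped as well. Without ILC1 replicate 3 the median of the 14 was -0.28, with 3 positive and 11 negative.

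Immunoproteasome subunits replace constitutive ones in lymphocytes and after interferon, which changes the peptides made. Per kilobase of exon, Psmb8 stood to its constitutive counterpart Psmb5 at 1.26, 1.29 and 1.09 in the NK libraries and 0.899, 1.01 and 1.1 in the ILC1 libraries. These ratios overlapped only through NK replicate 3 and ILC1 replicate 3. Psmb9 over Psmb6 was 0.776, 0.58 and 0.717 in the NK libraries and 0.598, 0.567 and 0.512 in the ILC1 libraries, and overlapped. Psmb10 over Psmb7 was 8.43, 11.3 and 4.96 in the NK libraries and 3.62, 4.36 and 4.66 in the ILC1 libraries, higher in each NK library than in any ILC1 library, with NK replicate 3 close to the ILC1s. Psmb10 itself had a log2 difference of -0.26 ± 0.35 with overlapping groups, and Psmb7 one of 0.64 ± 0.22 with an adjusted p of 0.277 in edgeR's quasi-likelihood test. The activator subunits Psme1 and Psme2 overlapped between groups. Psme2 shares 28.3% of its windows with Psme2b.

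**Figure D4:**
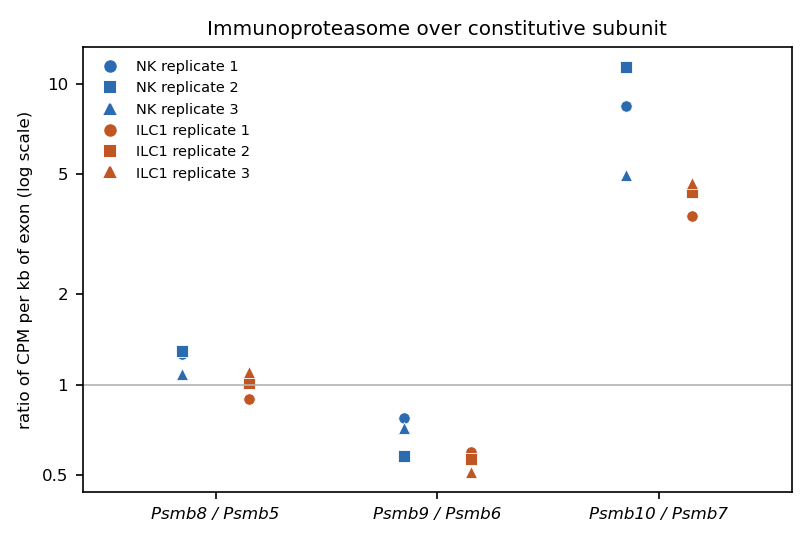
Ratio of each immunoproteasome subunit to its constitutive counterpart, each as CPM per kilobase of exon (log axis), 1 point per library. Psmb10 over Psmb7 separates the groups, from 4.96 up in NK cells and to 4.66 at most in ILC1s, and the other ratios overlap.

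Most class II genes had higher values in the ILC1 libraries, but 0 of the 10 passed edgeR or limma-voom, and DESeq2 gave no adjusted p for 8. At an unadjusted p under 0.05, edgeR put 7 higher (6.95% of all genes). In ILC1 replicate 3, 8 of the 10 were over 5 times the median of the other libraries. In ILC1 replicates 1 and 2, the invariant chain, the 3 classical chains and Ciita were 2.6 to 3.64 times the NK mean. The median log2 difference of the 10 was 3.89 (all tested genes: 0.08), with 8 positive and 2 negative, and without ILC1 replicate 3 it was 1.38, with 7 positive and 3 negative. On the 6 libraries, 7 of the 10 were higher in ILC1s without overlap (12.5% of all genes). Without ILC1 replicate 3, 7 were higher (27.8%) and 1, H2-Ob, was lower (19.4%) without overlap.

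Cd74, the invariant chain that fills the class II groove during assembly, was at 77.9, 53.8 and 95.1 CPM in the NK libraries and 220.3, 181 and 4483 CPM in the ILC1 libraries. ILC1 replicate 3 was 47.1 times the median of the others, and the mean of ILC1 replicates 1 and 2 was 2.65 times the NK mean. The log2 difference was 4.43 ± 1.45, and 1.39 ± 0.27 without ILC1 replicate 3, with adjusted p of 0.268 and 0.136 in edgeR's quasi-likelihood test. H2-Ab1, the beta chain of I-A, was at 25.5, 30.4 and 39.8 CPM in the NK libraries and 91.8, 93.3 and 2171 CPM in the ILC1 libraries. Its log2 difference was 4.62 ± 1.48, and 1.52 ± 0.22 without ILC1 replicate 3, where its adjusted p of 0.0866 in edgeR's quasi-likelihood test was the smallest of the class II genes. The I-A alpha chain H2-Aa was at 35.3, 23.5 and 47.4 CPM in the NK libraries and 86.1, 98 and 2223 CPM in the ILC1 libraries, in the same order, with a log2 difference of 4.5 ± 1.5 (1.36 ± 0.31 without ILC1 replicate 3) and an adjusted p of 0.272 in edgeR's quasi-likelihood test. H2-Eb1 encodes the I-E beta chain, whose alpha partner C57BL/6 mice do not make. It was at 24.6, 13.7 and 36.4 CPM in the NK libraries and 91.9, 89.2 and 1886 CPM in the ILC1 libraries, with ILC1 replicates 1 and 2 at 3.64 times the NK mean, a log2 difference of 4.79 ± 1.48 (1.84 ± 0.42 without ILC1 replicate 3) and an adjusted p of 0.25 in edgeR's quasi-likelihood test. Ciita, the transactivator of class II genes, was low outside ILC1 replicate 3, at 2.85, 1.28 and 3.22 CPM in the NK libraries and 8.18, 6.24 and 62.2 CPM in the ILC1 libraries. No NK value reached the lowest ILC1 value. Its log2 difference was 3.38 ± 1.06, and 1.54 ± 0.53 without ILC1 replicate 3, with an adjusted p of 0.256 on the 6 libraries in edgeR's quasi-likelihood test.

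The H2-DM genes, whose product loads peptides onto class II, were split. H2-DMa was at 35.1, 40.4 and 22.7 CPM in the NK libraries and 27.9, 25.4 and 391 CPM in the ILC1 libraries, so that ILC1 replicates 1 and 2 lay within the NK range. H2-DMb1 was at 8.14, 14.4 and 13.8 CPM in the NK libraries and 17, 21 and 289 CPM in the ILC1 libraries. H2-DMb2 was at 0.0999, 0.411 and 1.49 CPM in the NK libraries and 3.34, 3.65 and 36 CPM in the ILC1 libraries. The ILC1 values lay above the NK values for both. The level of H2-DMb2 in NK replicate 1 is under the limit that 3 counts set, and 22.7% of the H2-DMb1 windows occur in H2-DMb2 and 21.2% of the H2-DMb2 windows in H2-DMb1. H2-Oa and H2-Ob encode H2-DO, an inhibitor of H2-DM found mainly in B cells, and did not share the order of the rest. H2-Ob was at 5.79, 5.85 and 4.47 CPM in the NK libraries and 2.39, 1.85 and 6.49 CPM in the ILC1 libraries. H2-Oa was at 6.54, 10.7 and 5.62 CPM in the NK libraries and 4.73, 6.33 and 8.29 CPM in the ILC1 libraries. Neither was over 5 times the other libraries in ILC1 replicate 3. The sum of the 3 H2-DM genes over the 2 H2-DO genes, per kilobase, was 2.63, 2.36 and 3.25 in the NK libraries and 5.29, 4.53 and 43.1 in the ILC1 libraries.

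**Figure D5:**
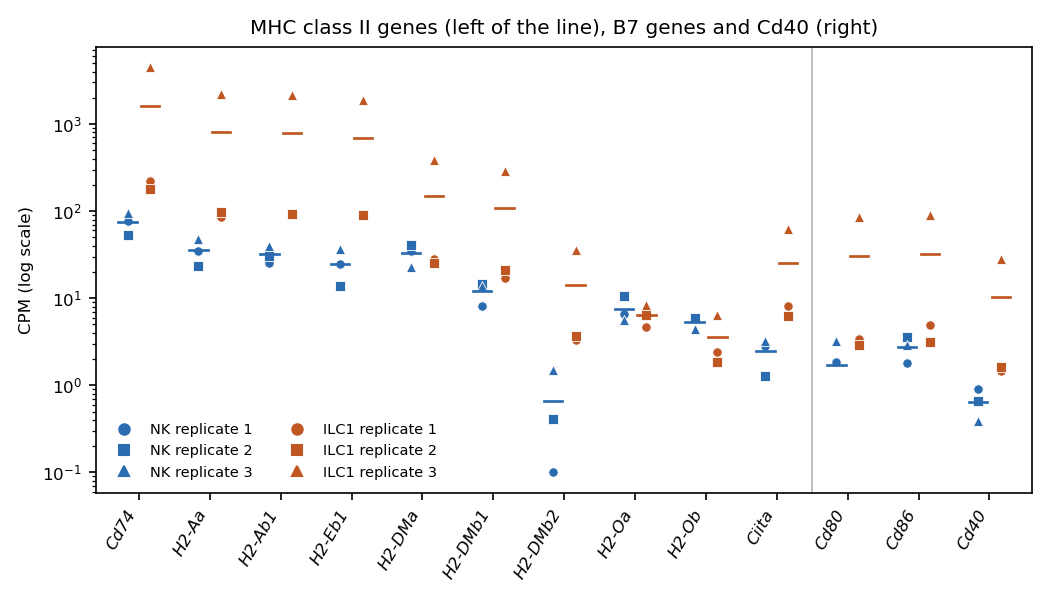
CPM (log axis) of the 10 class II genes and of Cd80, Cd86 and Cd40, 1 point per library with group means as short lines; Cd80 in NK replicate 2 had 0 counts and is not drawn. ILC1 replicate 3 is far above the rest for 11 of the 13 genes, the exceptions being H2-Oa and H2-Ob, and ILC1 replicates 1 and 2 are above the NK points for Cd74, H2-Aa, H2-Ab1, H2-Eb1, H2-DMb1, H2-DMb2, Ciita and Cd40.

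The costimulatory genes were low outside ILC1 replicate 3. Cd86 was at 1.8, 3.54 and 2.93 CPM in the NK libraries and 4.9, 3.12 and 89.7 CPM in the ILC1 libraries, with an adjusted p of 0.313 in edgeR's quasi-likelihood test and overlapping groups. Cd40 was at 0.899, 0.668 and 0.384 CPM in the NK libraries and 1.45, 1.61 and 28.2 CPM in the ILC1 libraries, without overlap, and its adjusted p was 0.278 in edgeR's quasi-likelihood test. Cd80 was at 1.85, 0 and 3.22 CPM in the NK libraries and 3.4, 2.92 and 84.5 CPM in the ILC1 libraries, where the 0 in NK replicate 2 allows up to 0.154 CPM. The median log2 difference of the 3 was 3.99, and 0.87 without ILC1 replicate 3. Other B7 family genes were less uneven: the inhibitory ligand Cd274 was at 119, 120.0 and 112 CPM in the NK libraries and 115, 93.6 and 238 CPM in the ILC1 libraries, and of the 5 tested in that list 0 were called by edgeR or DESeq2 and 0 had an unadjusted p under 0.05 in edgeR.

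Macrophage genes moved with class II in ILC1 replicate 3. Lyz2, the macrophage lysozyme, was at 29.8, 32.8 and 92.6 CPM in the NK libraries and 117, 94.2 and 5838 CPM in the ILC1 libraries, and Cd74 per Lyz2, both as CPM, was 2.61, 1.64 and 1.03 in the NK libraries and 1.89, 1.92 and 0.768 in the ILC1 libraries. Lyz2 is 1 of the 12 macrophage markers, and ratios to the others are not given here. Per Lyz2 alone, ILC1 replicate 3 had the least Cd74 of the 6 libraries. Genes of class II peptide supply and turnover were high in that library too: the cathepsin Ctss was at 119, 101 and 112 CPM in the NK libraries and 103, 98.4 and 2389.7 CPM in the ILC1 libraries. The ubiquitin ligase Marchf1, which removes class II from the surface, was at 0.849, 1.23 and 1.1 CPM in the NK libraries and 2.17, 1.12 and 57.8 CPM in the ILC1 libraries. Of the 9 genes in that list, 6 were over 5-fold in ILC1 replicate 3. Of the 8 tested, 8 had positive log2 differences and 0 were called by edgeR or DESeq2. DESeq2 gave no adjusted p for 6 of the 9 and could not call those. At an unadjusted p under 0.05, edgeR put 3 higher (6.95% of all genes). Among dendritic cell markers, Xcr1 and Clec9a reached 5.85 and 2.03 CPM at most, in ILC1 replicate 3, and 4 of the 12 markers were over 5-fold there. The summed dendritic list, 2144, 2288 and 1459 CPM in the NK libraries and 1566, 1406 and 1561 CPM in the ILC1 libraries, is carried by Itgax and Irf8, which NK cells express themselves. For B cells, the lineage factor Pax5 was at 0 in all 3 NK libraries and in ILC1 replicate 3 and at most 0.612 CPM elsewhere, and the sum, 581, 331 and 308 CPM in the NK libraries and 280.0, 383 and 296 CPM in the ILC1 libraries, is nearly all Ighm. The part of these cell types in the class II levels was not tested.

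Summed T cell and epithelial markers were also higher in each ILC1 library than in any NK library. The 6 T cell markers summed to 45.1, 45.4 and 37.2 CPM in the NK libraries and 59.4, 60.1 and 179.7 CPM in the ILC1 libraries. Of these markers, 6 of 6 had positive log2 differences. DESeq2 called 2 higher (2.83% of all genes with an adjusted p). The 6 epithelial and tumour markers summed to 33, 20.5 and 16.1 CPM in the NK libraries and 112, 106 and 382 CPM in the ILC1 libraries. Cdh1 made up most of the sum in the ILC1 libraries. Of the 5 tested, 2 had positive and 3 negative log2 differences, with a median of -0.39. Within NK replicate 3 and ILC1 replicates 1 and 2, the libraries rich in matrix genes, class II sums were 270.1, 554 and 526 CPM and macrophage sums 286, 391 and 289.9 CPM. T cell sums in these 3 libraries were 37.2, 59.4 and 60.1 CPM, and epithelial and tumour sums 16.1, 112 and 106 CPM. The median log2 difference among them was 0.98 for class II, with 8 of 10 positive, and 0.25 for macrophage markers, with 11 of 12 positive. An edgeR fit on these 3 libraries put 7 members higher (6.13% of 15589 genes) and 5 lower (6.0%). These counts are a description of the libraries, since 1 NK library gives no spread within NK cells and the set was seen in earlier results of the same data. What these cell types add to the class II values there was not tested.

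Most factors that feed both pathways had negative log2 differences, with exceptions. Of 15 genes of the RFX and NF-Y promoter complex and of interferon-gamma signalling, 0 were called by edgeR. Their log2 differences were positive for 4 and negative for 11, with a median of -0.24. Without overlap, 1 was higher and 7 were lower in ILC1s (12.5% and 13.3% of all genes). At an unadjusted p under 0.05, edgeR put 1 higher and 3 lower (6.95% and 8.82% of all genes). DESeq2 called 1 higher and 2 lower in ILC1s (2.83% and 2.94% of all genes with an adjusted p). Jak1, a kinase of interferon receptors, was at 1359, 1479 and 1025 CPM in the NK libraries and 643, 555 and 524 CPM in the ILC1 libraries, without overlap, with an adjusted p of 0.105 in edgeR's quasi-likelihood test and 9.44e-05 in DESeq2. The receptor chain Ifngr1 was at 1599, 1500.3 and 1039 CPM in the NK libraries and 778, 698 and 775 CPM in the ILC1 libraries, again lower in every ILC1 library. The partner chain Ifngr2 had the opposite order, at 2.6, 2.05 and 9.18 CPM in the NK libraries and 14.4, 17.4 and 65.5 CPM in the ILC1 libraries, and was highest in ILC1 replicate 3.

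Promoters of class I and class II genes carry related boxes, bound by the RFX, CREB and NF-Y factors with which Nlrc5 and Ciita work, and 6 are printed to show which letters each class holds. RefSeq promoter entries (GRCm38.p6, 250 bases before to 50 after a start) were found for 28 of the 37 members, and a stretch from 180 bases before to 20 after the start is shown for 6. Capitals mark letters only, on the printed strand: GGGGATTCC (as in a kappa B site), GCAAC (as in an X1 box), TGACG (X2 box) and ATTGG (inverted CCAAT, Y box). In H2-D1 the GCAAC begins 14 bases before the start, after its TGACG and ATTGG. In H2-Aa and H2-Eb1 it lies ahead of ATTGG, so the H2-D1 match does not have the place of an X1 box. H2-K1 is chr17:34000328-34000527 on the minus strand, the first of its 2 entries, and H2-D1 is chr17:35262914-35263113 on the plus strand. H2-Q7 is chr17:35438975-35439174 on the plus strand and B2m chr2:122147507-122147706 on the plus strand. H2-Aa is chr17:34287804-34288003 on the minus strand and H2-Eb1 chr17:34305687-34305886 on the plus strand.
H2-K1: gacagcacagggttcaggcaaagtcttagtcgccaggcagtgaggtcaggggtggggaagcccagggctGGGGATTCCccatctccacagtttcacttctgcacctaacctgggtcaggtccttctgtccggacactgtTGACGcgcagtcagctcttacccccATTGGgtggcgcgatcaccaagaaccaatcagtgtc
H2-D1: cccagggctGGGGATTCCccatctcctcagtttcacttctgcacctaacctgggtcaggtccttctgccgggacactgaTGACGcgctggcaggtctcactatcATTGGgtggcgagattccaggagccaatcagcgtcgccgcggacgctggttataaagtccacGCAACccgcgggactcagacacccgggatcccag
H2-Q7: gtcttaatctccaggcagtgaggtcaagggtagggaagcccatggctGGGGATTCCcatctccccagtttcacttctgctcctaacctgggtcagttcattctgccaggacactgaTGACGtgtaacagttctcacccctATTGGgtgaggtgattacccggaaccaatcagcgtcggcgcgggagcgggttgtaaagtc
B2m: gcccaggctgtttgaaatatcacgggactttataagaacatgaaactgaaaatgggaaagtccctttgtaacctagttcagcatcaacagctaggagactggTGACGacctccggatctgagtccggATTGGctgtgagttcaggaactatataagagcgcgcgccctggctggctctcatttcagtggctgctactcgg
H2-Aa: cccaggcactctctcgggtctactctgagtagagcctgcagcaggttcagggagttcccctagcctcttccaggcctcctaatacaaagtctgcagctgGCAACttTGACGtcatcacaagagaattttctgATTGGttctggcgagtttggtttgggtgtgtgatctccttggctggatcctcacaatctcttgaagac
H2-Eb1: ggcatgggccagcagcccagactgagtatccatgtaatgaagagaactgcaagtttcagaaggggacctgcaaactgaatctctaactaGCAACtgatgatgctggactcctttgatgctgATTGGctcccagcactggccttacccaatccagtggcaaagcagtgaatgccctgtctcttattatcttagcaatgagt
On both strands of the whole 300-base windows, GGGGATTCC was found in 4 of 9 class I molecules and 0 of 7 class II genes, against 0.250% of all 32851 entries. TGACG was in 7 of 9 and 1 of 7 (20.8% of all), ATTGG in 9 of 9 and 7 of 7 (37.4%), and GCAAC in 3 of 9 and 5 of 7 (35.2%). GAAANNGAAA, as in an interferon response element, was in 3 of 9 and 0 of 7 (3.44%). Looser forms of that element were not searched, so a gene without this match may still hold one. In H2-Aa the TGACG overlaps its own match on the other strand. TGACG stood 24 to 26 bases ahead of ATTGG, start to start, in 5 of 9 class I molecules and 1 of 7 class II genes (0.201% of all), and GCAAC 30 to 33 bases ahead in 0 of 9 and 4 of 7 (0.201%). These spacings were picked after the printed promoters were read, so the member counts are no evidence for them. A match describes letters and not binding. H2-Q7, with a log2 difference of -1.0 ± 0.18, and H2-D1, with -0.25 ± 0.16, both hold the kappa B, X2 and Y letters.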

How the data were processed

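The authors deposited raw counts per gene for 6 poly(A)-selected, single-end 50-base libraries (3 NK, 3 ILC1). Per the submitters' processing notes, the tools were HISAT2 2.1.0 and featureCounts 2.0.1 and the build GRCm38. The strand setting, the treatment of reads that map more than once and the annotation release are not named in the labels. Groups follow the labelled cell type. From the counts, edgeR 4.0.16 (R 4.3.3) was run with filterByExpr, TMM and a robust quasi-likelihood fit on all 6 libraries modelling only cell type, and p-values were adjusted over the 14475 genes by Benjamini-Hochberg with a threshold of 0.05. limma 3.58.1 (voom) and DESeq2 1.42.0 were alternatives, as were other scalings and filters, a replicate block, a term for library sets seen in earlier results (the 3 rich in matrix genes, the other NK libraries, and ILC1 replicate 3), the matrix-rich set alone, and leaving out each library. The fits were tested on simulated data with less spread between libraries than these data have. That test therefore does not show which differences could be found here. Gene lengths and positions are from GENCODE M21 (GRCm38), per-length levels use the union of exons, and repeat windows are 50-base stretches of its transcripts. Totals of 16931099 to 20224847 counts put the limit of a 0 at 3 counts, or 0.144 to 0.174 CPM.

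The members, lists and tests were chosen with earlier results of these data known. All 37 members could be named. Values in every library were to be given for B2m, H2-K1, H2-D1, Nlrc5, Cd74, H2-Aa, H2-Ab1, H2-Eb1, Ciita and Cd86, for members called by any tool on the 6 libraries, and for the 2 with the smallest edgeR p in each list. From each list of other pathway genes, up to 3 by p and up to 3 by level were named; markers were named after their values were seen. List sums and ratios have no test.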

Additional observations from a re-analysis of the deposited data

How the results depend on the processing

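The count of members called by edgeR's quasi-likelihood test was 0 in each direction on the 6 libraries, and 0 higher members under every alternative except NK replicate 3 with ILC1 replicates 1 and 2, which gave 7 higher and 5 lower. DESeq2 gave 3 lower, and leaving out each library gave 0 to 2 lower, the 2 without NK replicate 3. The cause of these differences was not tested. The labels do not say whether same-numbered samples are paired. Deviations of same-numbered samples from their group means correlated at -0.37, -0.37 and -0.51. Those of NK replicate 3 with ILC1 replicates 1 and 2, all rich in matrix genes, correlated at 0.42 and 0.54. Such differences between libraries could hide a pairing, so these values cannot decide it. With a replicate block 0 members and 0 of all genes were called, 1584 genes having an unadjusted p under 0.05 in edgeR. Leaving out each library, the median log2 difference ran from -0.45 to -0.22 for class I molecules, from 1.38 to 4.36 for class II and from 0.87 to 4.51 for the B7 and CD40 group, the value nearest 0 without ILC1 replicate 3 for the latter 2. With a term for library sets the class II and B7 and CD40 medians were 1.02 and 0.45. With NK replicate 3 and ILC1 replicates 1 and 2 alone they were 0.98 and 0.41. Both settings rest on the same contrast, NK replicate 3 against ILC1 replicates 1 and 2, since the other sets hold a single cell type each. Their similar values are therefore not separate checks. Of 553 member values over 15 alternatives, 501 kept direction without passing the threshold, 17 passed it, and 35, of 11 members, reversed. The 501 include the DESeq2 values of the 11 members with no adjusted p, mostly of class II, which could not pass. Some of the 17 come from the fit with 1 NK library. Leaving out each library, log2 differences ran from -0.50 to 0.0093 for H2-T23, -0.34 to 0.34 for H2-T24, -0.24 to 0.11 for H2-M3, -0.28 to 0.047 for Tapbp, -0.28 to 0.23 for Psmb8, -0.20 to 0.099 for Psmb9, -0.18 to 0.46 for Psme2, -0.17 to 0.065 for Erap1, -0.30 to 2.69 for H2-DMa and -0.47 to 0.090 for H2-Oa. Without the low-count filter H2-M3 was at 0.026, Psmb9 at 0.00047 and Erap1 at 0.0061. H2-M3 was at 0.015 with RLE scaling and 0.017 in DESeq2, Psmb8 at -0.024 with upper-quartile scaling, and H2-T24 at -0.0069 in limma-voom. With the library-set term Tapbp was at 0.040, Erap1 at 0.086, H2-T24 at -0.45 and Cd80 at -0.029, and with the 3 matrix-rich libraries alone Erap1 was at 0.044, H2-T24 at -0.49 and Cd80 at -0.070. Low counts limit H2-DMb2, Cd40 and Cd80.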
